A study of Homo sapiens with 4 samples.

Results

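Interferon-stimulated genes (ISGs) and their regulators were followed through polysome profiling of MDA-MB-231 cells, a human triple-negative breast cancer line. The set holds 37 genes, a named list of known ISGs and regulators matched by gene symbol, and all 37 were found among the 28198 genes of the deposited table. Of them, 34 had a mean of at least 1 FPKM (fragments per kilobase of transcript, scaled to library size) over the libraries, as did 10905 genes in all. The study asked whether METTL3, the catalytic subunit of the m6A RNA methyltransferase, alters mRNA translation when lysine K177 is replaced by glutamine, a mimic of acetylation. All cells had been depleted of endogenous METTL3 by a lentiviral shRNA and reconstituted by lentivirus with wild-type METTL3 (METTL3-WT cells) or METTL3 K177Q (METTL3-K177Q cells), and all were treated with cycloheximide, which freezes ribosomes on mRNA, before lysis. Each lysate was separated on a sucrose gradient and pooled into a sub-polysome fraction, which holds 40S, 60S and 80S particles, and a polysome fraction, which holds mRNAs bound by several ribosomes. Poly(A)-selected RNA of each fraction was sequenced, and 4 libraries were analysed here, 1 per genotype and fraction, all labelled as replicate 2. Whether a reconstituted line was 1 clone or a pool is not given in the sources used here. With 1 library per condition there is no replicate error, and no difference between conditions was tested.

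In the interferon response, type I interferon binds the IFNAR1 and IFNAR2 receptor chains, whose kinases JAK1 and TYK2 phosphorylate transcription factors of the STAT family. Among them STAT2 joins IRF9 in a complex that binds the interferon-stimulated response element (ISRE) in ISG promoters. The induced proteins sense viral RNA, block viral entry and release, degrade or edit RNA, or attach the ubiquitin-like protein ISG15 to other proteins. A basal level of many ISGs is kept in cells without added interferon, and some breast cancer lines hold that level high.

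The ISRE core was sought as GAAANNGAA, on both strands, in RefSeq promoters that span 250 bases before to 50 bases after each gene start (GRCh38.p14). A promoter was found for 29 members, and 18 of these 29 (62.1%) held the core, against 2264 of all 27305 promoters (8.29%). Among 51 other genes of the interferon pathway with a promoter, 27 (52.9%) held it. In 14 members the core occurred 2 or more times, counting overlapping matches. The share of all promoters with 2 or more matches was not computed, so this count describes the members only. IFIT2, IFITM2, IRF2, IRF3, IRF7, MX2, OAS2 and OASL were not among the promoters. A match is a description and not a site shown to be bound. The windows below are shown because they belong to the most abundant members, to IFIT1 and to HERC5, the member with the largest polysome to sub-polysome ratio in METTL3-WT cells. Each reads 5′ to 3′ on the strand of the gene, with the match chosen for display in capitals. In IFIT1 and HERC5 the match in capitals lies on the opposite strand and appears as its reverse complement. Further matches, some overlapping those in capitals, are left in lower case in the windows of ISG15, IFI27, IFITM3, BST2 and IFIT1. The lower-case matches of IFI27 and IFIT1 lie on the opposite strand. The windows lie at chr1:1013370-1013418 (ISG15, plus strand), chr1:27672279-27672327 (IFI6, minus strand), chr14:94110621-94110669 (IFI27, plus strand), chr11:313980-314028 (IFITM1, plus strand), chr11:320884-320932 (IFITM3, minus strand), chr19:17405732-17405780 (BST2, minus strand), chr10:89392488-89392536 (IFIT1, plus strand) and chr4:88457026-88457074 (HERC5, plus strand).
ISG15: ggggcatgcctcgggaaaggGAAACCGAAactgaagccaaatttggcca
IFI6: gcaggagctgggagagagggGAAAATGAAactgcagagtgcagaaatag
IFI27: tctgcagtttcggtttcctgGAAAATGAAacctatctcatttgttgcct
IFITM1: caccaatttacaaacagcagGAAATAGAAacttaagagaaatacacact
IFITM3: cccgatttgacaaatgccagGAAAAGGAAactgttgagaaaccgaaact
BST2: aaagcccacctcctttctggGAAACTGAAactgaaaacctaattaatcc
IFIT1: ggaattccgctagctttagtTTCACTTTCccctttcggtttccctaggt
HERC5: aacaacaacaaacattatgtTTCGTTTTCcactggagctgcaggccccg

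METTL3, the targeted gene, was present in every library, at 9.39 FPKM (sub-polysome) and 38.7 FPKM (polysome) with the wild-type protein, and at 5.07 FPKM and 29.5 FPKM with K177Q. FPKM summed to between 767949 and 1037594 per library, with 15773 to 16193 genes above 0. The table gives no counts, and its lowest values correspond to approximately 24200000 to 25900000 fragments per library. All 5 genes known to be high in MDA-MB-231 cells (VIM, CD44, CAV1, AXL and LGALS1) were above the filter, with a lowest value of 88.6 FPKM. Of 5 luminal breast genes, only GATA3 was above it, at 2.83 to 4.95 FPKM. Of the immune and endothelial markers, CD3E was at 0 in all 4 libraries and PTPRC was at 0.0515 FPKM or less, while CD14 had 24.9 to 59.1 FPKM, LYZ 0.726 to 1.38 FPKM and PECAM1 0.537 to 1.81 FPKM. The summed level of the immune and endothelial markers ranged from 27.2 to 61.3 FPKM, and its part in the values of the members was not tested.

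The members spanned a wide range of levels. IFITM3, which restricts virus entry at endosomes, was the most abundant with a mean of 1539 FPKM and stood above 99.7% of all genes in the table. It was followed by ISG15 at 1155 FPKM, BST2 at 744 FPKM, IFI27 at 376 FPKM, IFITM2 at 352 FPKM, IFITM1 at 304 FPKM and IFI6 at 142 FPKM. Within this order the ranges over the libraries overlapped among IFI27, IFITM2 and IFITM1, and between IFITM1 and IFI6. The next member, IRF3, had a mean of 98.2 FPKM, and the remaining members had means of 31.7 FPKM or less. The 3 members under the filter were SAMD9, MX2 and IFI44L. SAMD9, a cytoplasmic antiviral protein, had 0.597 and 0.559 FPKM in the sub-polysome and polysome fractions of METTL3-WT cells, and 0.425 and 0.319 FPKM in those of METTL3-K177Q cells. MX2, a GTPase that acts against retroviruses, had 0.363, 0.537, 0.166 and 0.509 FPKM in the same order. IFI44L had 0.0687, 0.00543, 0.0242 and 0.0446 FPKM, which correspond to about 1 to 10 fragments per library. They are not among the 34 members whose libraries are compared at 1.5-fold. The genes of interferon itself (IFNB1, IFNA1, IFNL1, IFNL2 and IFNL3) were at 0 FPKM in every library. Together the 37 members took 0.474% (sub-polysome) and 0.610% (polysome) of all FPKM in METTL3-WT cells, and 0.542% and 0.654% in METTL3-K177Q cells. In bulk fractions, a change in the number of cells that express a gene and a change in its RNA per cell cannot be told apart.

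**Figure D1:**
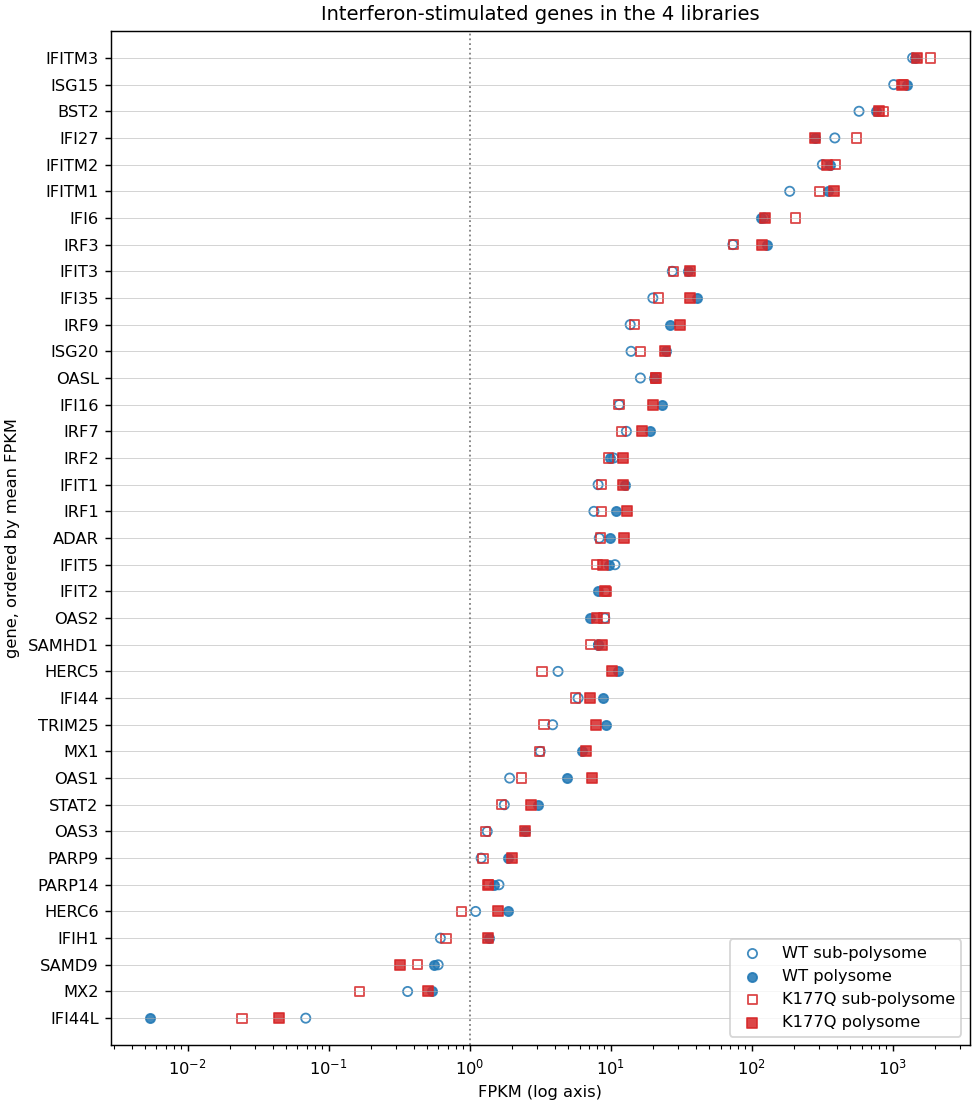
FPKM (log axis) of the 37 interferon-stimulated genes in the 4 libraries, ordered by mean. Open symbols are sub-polysome and filled symbols polysome libraries, circles METTL3-WT and squares METTL3-K177Q cells. The dotted line is the 1 FPKM filter, and 3 genes have means to its left; IFITM3, ISG15 and BST2 lie at the top.

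Most ISG mRNAs had a higher FPKM in the polysome than in the sub-polysome library, in both genotypes. FPKM is relative to each library, so higher or lower here does not give the amount of RNA in a fraction. The position of 0 also depends on the scaling. Folds were taken after adding 0.1 to each FPKM, and a difference of at least 1.5-fold was counted. On the log2 scale 26 of 34 members were above 0 in METTL3-WT and 25 in METTL3-K177Q cells, as were 57.3% and 57.2% of all genes. In METTL3-WT cells, 16 of 34 members were higher in the polysome fraction, where 28.1% of all genes were, and none was lower, where 19.1% of all genes were. Their median log2 polysome to sub-polysome value was 0.56, against 0.14 for all genes. In METTL3-K177Q cells, 14 members were higher and 2 lower, against 30.2% and 21.3% of all genes, with a median of 0.49 against 0.16. The genes higher in both genotypes numbered 13, which is 81.2% of the METTL3-WT list and 92.9% of the METTL3-K177Q list. Over all genes these shares were 82.6% and 76.9%. With a minimum mean of 5 FPKM, 9 of 26 members were higher in METTL3-WT cells, against 32.0% of all genes, and 7 in METTL3-K177Q cells, against 32.3%, so that these shares lay near or under those of all genes. Rescaling each library to the same total (the TPM unit) shifted log2 values by about 0.14 in METTL3-WT and 0.43 in METTL3-K177Q cells. Shifts of genes with low FPKM departed from these, because 0.1 was added. After this 19 and 23 members were higher, against 34.2% and 50.2% of all genes, and 0 lower, against 15.7% and 12.6%.

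**Figure D2:**
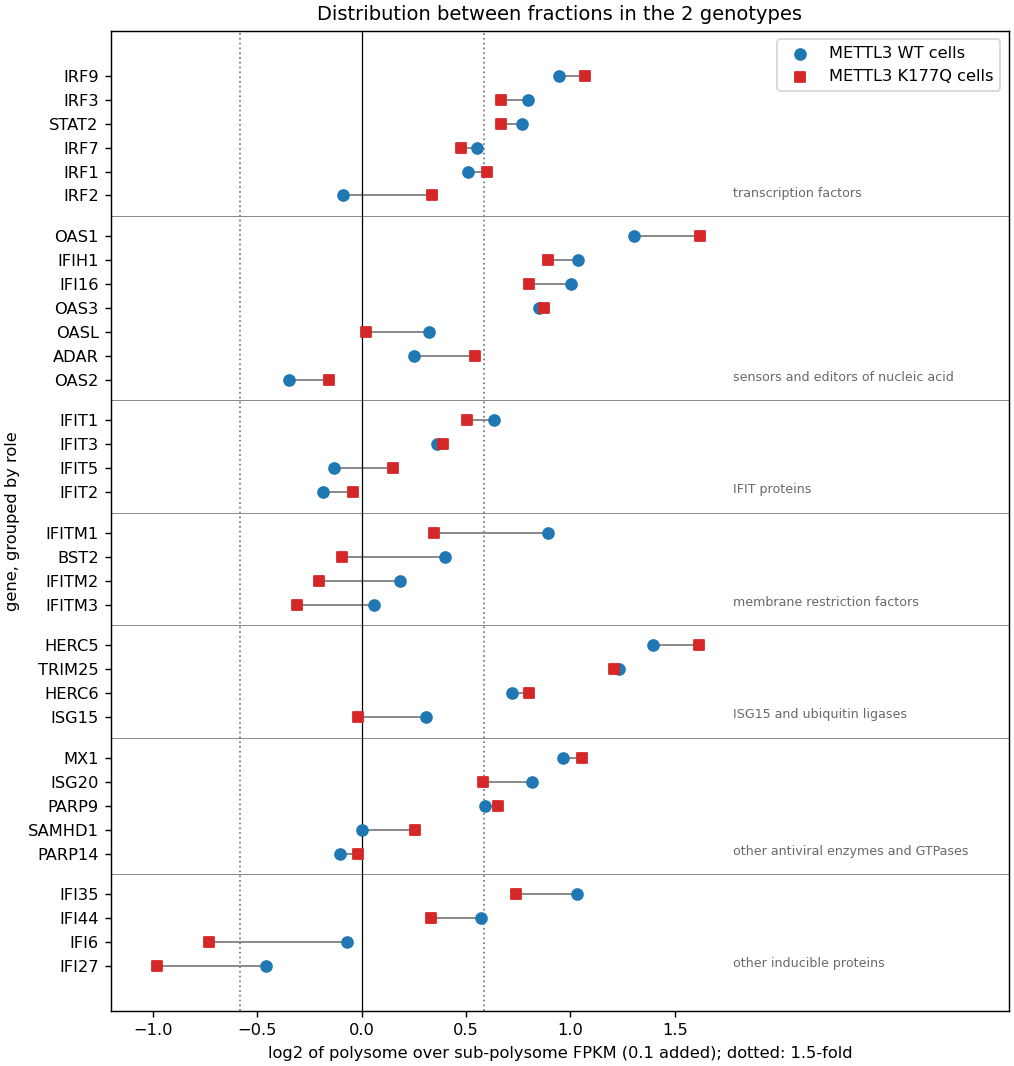
Log2 polysome over sub-polysome FPKM for the 34 members above the filter, grouped by role, in METTL3-WT (circles) and METTL3-K177Q cells (squares), with 1.5-fold marked by dotted lines. HERC5 and OAS1 lie farthest to the right, and IFI6 and IFI27 are past the left line in METTL3-K177Q cells.

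None of the 34 members was 1.5-fold higher in the polysomes of METTL3-K177Q cells and none was lower, against 2.13% and 3.13% of all genes, and the median log2 difference was -0.01. In the sub-polysome fraction, 2 members were higher in METTL3-K177Q cells, IFI6 and IFITM1, and none was lower, against 4.01% and 2.94% of all genes, with a median of 0.03. The translation efficiency (TE) of a gene was its polysome FPKM divided by its sub-polysome FPKM, and the TE ratio was that of METTL3-K177Q over that of METTL3-WT cells. No member had a TE ratio 1.5-fold higher, where 4.08% of all genes did, and 1 member, IFI6, had one lower, where 7.03% of all genes did. The median log2 TE ratio of the members was -0.05 (95% interval over genes -0.24 to 0.09), against -0.01 for all genes, with 16 members above 0 and 18 below. This interval treats the members as independent, although they share the same libraries, and holds no replicate error. It is therefore not a measure of the difference between genotypes. In TPM, log2 TE ratios shifted by about 0.30, and the members' median was 0.25. On that scale 26 of 34 members were above 0, as were 78.7% of all genes. The difference from the median of all genes was -0.04 on both scales. Directions of the TE ratio given here are on the FPKM scale and are relative to the other genes of the same libraries.

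**Figure D3:**
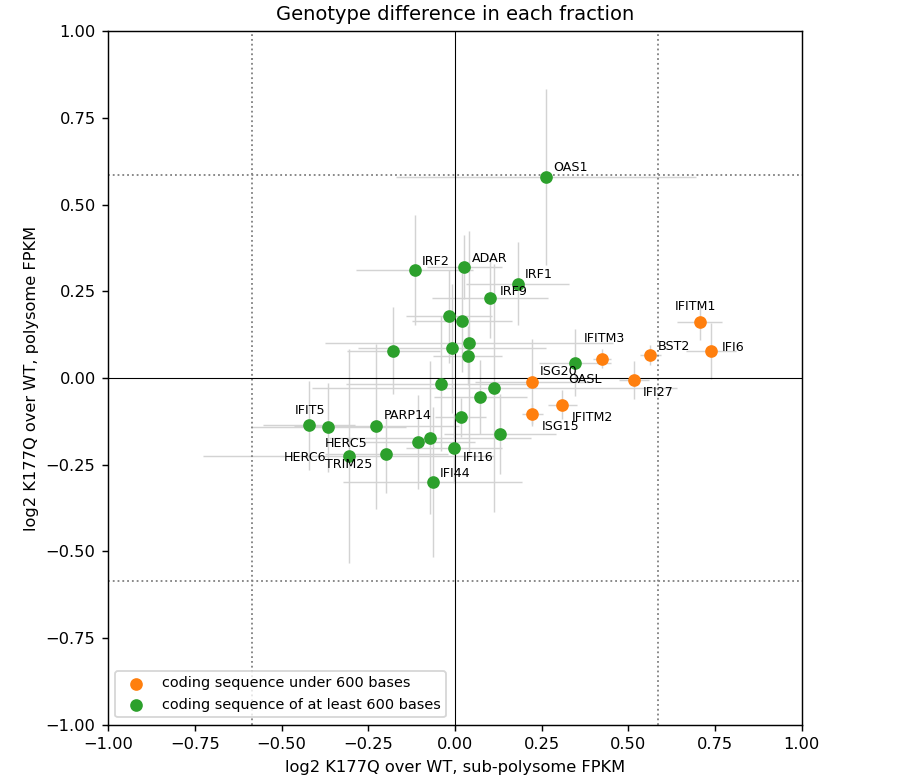
Log2 METTL3-K177Q over METTL3-WT FPKM in the sub-polysome (x axis) and polysome fraction (y axis) for the 34 members, with 95% intervals for approximate counting error only and 1.5-fold marked by dotted lines. Members with a coding sequence under 600 bases lie at 0.22 to 0.74 on the x axis and within -0.10 to 0.16 on the y axis.

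Among the transcription factors, STAT2 and IRF9, partners in the complex that binds the ISRE, were both higher in the polysome fraction. STAT2 had 1.76 FPKM (sub-polysome) and 3.06 FPKM (polysome) in METTL3-WT cells, against 1.67 and 2.71 FPKM in METTL3-K177Q cells, and values below follow this order. IRF9 had 13.7 and 26.5 FPKM in METTL3-WT and 14.7 and 31.0 FPKM in METTL3-K177Q cells. Both polysome libraries thus stood above both sub-polysome libraries for these genes, by log2 values of 0.77 and 0.67 for STAT2 and of 0.94 and 1.07 for IRF9. Of the exon bases of IRF9, 93.1% also lie in another gene model on the same strand, so its value may hold reads of that model. IRF3, which activates interferon genes after RNA or DNA is sensed, had 73.3 and 128 FPKM in METTL3-WT and 74.1 and 118 FPKM in METTL3-K177Q cells, or 1.74-fold and 1.59-fold higher in polysomes. IRF7, which amplifies the response, had 12.9 and 19.0 FPKM and then 12.0 and 16.7 FPKM, just inside the threshold at 1.47-fold and 1.39-fold. IRF1, an early activator, had 7.59 and 10.8 FPKM and then 8.61 and 13.1 FPKM, so that it passed 1.5-fold in METTL3-K177Q cells at 1.52-fold but not in METTL3-WT cells at 1.42-fold. IRF2, an antagonist of IRF1 at the same sites, had 10.5 and 9.83 FPKM in METTL3-WT and 9.66 and 12.2 FPKM in METTL3-K177Q cells. Its log2 TE ratio of 0.43 (SE 0.12 for counting error) was the highest of the 34 members, at 1.34-fold, and in TPM it reached 0.72. The 6 factors had TE ratios on both sides of 0, with a median of 0.01.

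Among the sensors and editors of nucleic acid, 4 of 7 were 1.5-fold higher in the polysome fraction in each genotype. The most enriched was OAS1, on chr12:112905856-112933219, which makes oligoadenylate from ATP when it binds double-stranded RNA. It had 1.92 and 4.88 FPKM in METTL3-WT and 2.32 and 7.35 FPKM in METTL3-K177Q cells, so that it was 2.47-fold and 3.08-fold higher in polysomes. Its polysome level was 1.495-fold higher in METTL3-K177Q than in METTL3-WT cells, just inside the threshold, with a log2 difference of 0.58 (95% counting interval 0.33 to 0.83), and it passed 1.5-fold in TPM at a log2 difference of 0.67. The next highest polysome difference was that of ADAR, at 0.32. OAS3, a longer enzyme of the family, had 1.33 and 2.48 FPKM and then 1.29 and 2.45 FPKM, 1.80-fold and 1.83-fold higher in polysomes. OAS2 went the other way, with 9.06 and 7.08 FPKM in METTL3-WT and 8.96 and 8.02 FPKM in METTL3-K177Q cells. The 3 genes lie side by side on chromosome 12, and on the FPKM scale OAS1 and OAS3 were higher and OAS2 lower in the polysome fraction in both genotypes, while in TPM the METTL3-K177Q value of OAS2 was above 0. OASL, a relative that has lost enzyme activity, had 16.2 and 20.3 FPKM and then 20.6 and 21.0 FPKM. Its log2 TE ratio was -0.30, and -0.0047 in TPM. IFIH1, also known as MDA5, senses long double-stranded RNA and had 0.619 and 1.37 FPKM in METTL3-WT and 0.678 and 1.34 FPKM in METTL3-K177Q cells. IFI16, a DNA sensor, had 11.5 and 23.1 FPKM and then 11.4 and 20.02 FPKM. Both were close to 2-fold higher in METTL3-WT polysomes, at 2.05-fold for IFIH1 and 2.00-fold for IFI16. IFIH1, with a mean of 1.004 FPKM, met the filter only through its polysome values and had about 57 fragments in its lowest library. With 1 added to each FPKM instead of 0.1, its log2 values were 0.55 in METTL3-WT and 0.48 in METTL3-K177Q cells, under 1.5-fold. ADAR, which edits adenosine to inosine in double-stranded RNA, had 8.29 and 9.87 FPKM in METTL3-WT and 8.44 and 12.3 FPKM in METTL3-K177Q cells. Its log2 TE ratio was 0.29 (SE 0.07 for counting error) and 0.59 in TPM. ADAR, OAS1 at 0.61 and IRF2 were the 3 members past 1.5-fold in the TE ratio in TPM, where 18.6% of all genes were.

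The IFIT proteins bind foreign RNA ends, and their 4 genes cluster on chromosome 10 between positions 89283694 and 89421605. IFIT1 had 8.12 and 12.7 FPKM in METTL3-WT and 8.55 and 12.2 FPKM in METTL3-K177Q cells, and IFIT3 had 27.3 and 35.1 FPKM and then 28.0 and 36.7 FPKM. IFIT1 was 1.55-fold higher in polysomes in METTL3-WT cells and 1.42-fold in METTL3-K177Q cells. IFIT2 had 9.18 and 8.07 FPKM and then 9.32 and 9.05 FPKM. IFIT5 had 10.7 and 9.75 FPKM in METTL3-WT and 7.97 and 8.86 FPKM in METTL3-K177Q cells. Its sub-polysome level gave a log2 difference of -0.42 between genotypes, the lowest of the 34 members, and passed 1.5-fold only in TPM, at -0.62. No IFIT gene had a TE ratio past 1.5-fold in either direction.

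The membrane restriction factors were the role with the highest median sub-polysome difference between genotypes, a log2 value of 0.49. IFITM1, IFITM2 and IFITM3 form a cluster on chromosome 11 (chr11:310041-315272, chr11:303655-309397 and chr11:319676-329475). IFITM1, which acts at the cell surface, had 185 and 344 FPKM in METTL3-WT cells, against 302 and 385 FPKM in METTL3-K177Q cells. IFITM2 had 316 and 359 FPKM in METTL3-WT and 392 and 340 FPKM in METTL3-K177Q cells. IFITM3 had 1378 and 1437 FPKM and then 1849 and 1494 FPKM. In all 3 genes the METTL3-WT sub-polysome library was the lowest, and the polysome libraries of the genotypes lay close together. BST2, or tetherin, which holds budding virus at the cell surface, had 575 and 758 FPKM in METTL3-WT and 849 and 794 FPKM in METTL3-K177Q cells. The sub-polysome level was therefore 1.63-fold higher in METTL3-K177Q cells for IFITM1, 1.48-fold for BST2, 1.34-fold for IFITM3 and 1.24-fold for IFITM2. In the polysome fraction the same genes differed by 1.12-fold, 1.05-fold, 1.04-fold and 0.948-fold. The log2 TE ratio was -0.54 for IFITM1, -0.50 for BST2, -0.39 for IFITM2 and -0.37 for IFITM3, all inside the 1.5-fold threshold. All 4 stayed below 0 in TPM, where their median moved from -0.44 to -0.14. Of the exon bases of IFITM1, 52.5% also lie in another gene model on the same strand, as do 3.08% of those of IFITM2. The IFITM genes share sequence with that model and with each other. Of the 50-base stretches of the transcript, 55.1% for IFITM1, 12.0% for IFITM2 and 20.8% for IFITM3 also occur in other genes. Their values are therefore uncertain where reads were split between these genes.

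ISG15 and the ligases around it differed from each other in level and in fraction. ISG15, on chr1:1001138-1014540, had 1013 and 1255 FPKM in METTL3-WT and 1183 and 1168 FPKM in METTL3-K177Q cells. Its log2 polysome to sub-polysome value was 0.31 in METTL3-WT and -0.02 in METTL3-K177Q cells, a log2 TE ratio of -0.33 (SE 0.02 for counting error). In TPM these values were 0.44 and 0.42, and the log2 TE ratio was -0.03. HERC5, the main ligase that attaches ISG15, had 4.22 and 11.3 FPKM in METTL3-WT and 3.26 and 10.2 FPKM in METTL3-K177Q cells. It was 2.63-fold and 3.07-fold higher in the polysome fraction, the largest value of the 34 members in METTL3-WT cells. HERC6, its neighbour on chromosome 4, had 1.10 and 1.88 FPKM and then 0.870 and 1.59 FPKM, or 1.65-fold and 1.74-fold. TRIM25, a ubiquitin ligase of the RIG-I pathway, had 3.87 and 9.22 FPKM and then 3.36 and 7.91 FPKM, or 2.35-fold and 2.32-fold. The 3 ligases thus stood higher in polysomes in both genotypes. ISG15, at over 100 times their FPKM, had a lower polysome to sub-polysome value than each ligase in both genotypes, in FPKM and in TPM.

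The other antiviral enzymes and GTPases had log2 TE ratios between -0.24 and 0.26. MX1, a GTPase that traps viral nucleocapsids, had 3.16 and 6.25 FPKM in METTL3-WT and 3.14 and 6.64 FPKM in METTL3-K177Q cells, 1.95-fold and 2.08-fold higher in polysomes. ISG20, an RNA exonuclease, had 13.9 and 24.6 FPKM and then 16.3 and 24.4 FPKM. It was 1.76-fold higher in METTL3-WT polysomes and 1.495-fold in METTL3-K177Q polysomes, just inside the threshold. PARP9 had 1.20 and 1.87 FPKM and then 1.24 and 2.01 FPKM, just past the threshold at 1.51-fold and 1.57-fold. PARP14, an ADP-ribosyltransferase encoded nearby on chromosome 3, had 1.61 and 1.49 FPKM and then 1.36 and 1.34 FPKM. SAMHD1, which depletes nucleotides needed by retroviruses, had 8.18 and 8.17 FPKM in METTL3-WT and 7.21 and 8.64 FPKM in METTL3-K177Q cells. PARP14 and SAMHD1 were within 1.5-fold in each of the 5 comparisons.

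The remaining inducible proteins held the single member past 1.5-fold in the TE ratio. IFI6, a small protein of mitochondria and the endoplasmic reticulum on chr1:27666064-27672212, had 122 and 117 FPKM in METTL3-WT cells, and 204 and 123 FPKM in METTL3-K177Q cells. The METTL3-K177Q sub-polysome library was thus the only one of the 4 that stood apart. The sub-polysome level was 1.67-fold higher in METTL3-K177Q cells, the polysome level 1.06-fold, and the log2 TE ratio was -0.66, or 1.58-fold lower. Its 95% counting interval of -0.77 to -0.55 reached inside the threshold, and in TPM the value was -0.36 and did not pass. Of the exon bases of IFI6, 26.6% also lie in a noncoding gene model on the same strand. IFI27, a relative of IFI6, had 387 and 282 FPKM in METTL3-WT and 554 and 280 FPKM in METTL3-K177Q cells. It was the member most depleted from polysomes, 1.38-fold in METTL3-WT and 1.98-fold in METTL3-K177Q cells, with a log2 TE ratio of -0.52 on the inner side of the threshold. IFI35 had 19.9 and 40.7 FPKM and then 21.8 and 36.4 FPKM, 2.04-fold and 1.67-fold higher in polysomes. IFI44 had 5.86 and 8.75 FPKM and then 5.60 and 7.08 FPKM, with a polysome log2 difference of -0.30 between genotypes, the lowest of the 34 members.

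The members with short coding sequences differed from the rest in the same direction. This grouping was made after the values were seen. The 8 members with a coding sequence under 600 bases were IFI27, IFITM1, IFI6, IFITM2, IFITM3, ISG15, BST2 and ISG20. All 8 had a log2 TE ratio below 0, with a median of -0.44, although in TPM ISG20 was above 0 and the median was -0.14. All 8 had a higher sub-polysome level in METTL3-K177Q cells on both scales, with a median log2 difference of 0.47 in FPKM and 0.26 in TPM, while their polysome levels differed by a median of 0.03 in FPKM and 0.12 in TPM. The other 26 members had a median log2 TE ratio of 0.07, with 16 above 0 and 10 below, and a median sub-polysome difference of -0.01. In TPM the median TE ratio of these 26 was 0.35, with 25 above 0, and their median sub-polysome difference was -0.21, with 24 below 0. Of all genes in TPM, 78.7% had a TE ratio above 0 and 24.1% a sub-polysome difference above 0. Across the 34 members, the Spearman rho of the TE ratio was 0.55 with coding-sequence length and -0.60 with mean FPKM. Across the 10304 genes above the filter with a known coding length these values were 0.46 and -0.32. The points share the same 4 libraries, and length and level move together among the members, since 7 of the 8 short members are also the 7 members whose mean reached 100 FPKM. The decile of all genes with the shortest coding sequences had a median log2 TE ratio of -0.30, and the decile with the longest had 0.25. Taken relative to the median of its length decile, no member was past 1.5-fold in the TE ratio, and the members' median was -0.09. The share of all genes past 1.5-fold on this scale was not computed, so the count describes the members only. All 8 short members stayed below the median of their decile, from -0.37 for IFI6 to -0.03 for ISG15. The part of length and of level in the values of these members was not tested.

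Of 65 other genes of the interferon pathway that were found in the table, 45 were above the filter. In the TE ratio, 3 of them (6.67%) were 1.5-fold higher and 1 (2.22%) was lower, against 4.08% and 7.03% of all genes. Their median log2 value was 0.01. TYK2, the kinase bound to IFNAR1, had 15.7 and 32.3 FPKM in METTL3-WT and 11.9 and 37.0 FPKM in METTL3-K177Q cells, a TE ratio of 1.51. MAVS, the mitochondrial adaptor of RNA sensing, had 5.04 and 5.40 FPKM and then 3.25 and 5.48 FPKM, a TE ratio of 1.56. DTX3L, the ubiquitin ligase that pairs with the PARP9 protein, had 3.26 and 1.39 FPKM and then 2.67 and 2.06 FPKM, a TE ratio of 1.76, whereas that of PARP9 was 1.04. SOCS1, an inhibitor of JAK signalling, had 31.6 and 8.98 FPKM and then 45.0 and 8.17 FPKM, a TE ratio of 0.642. In the polysome fraction none of the 45 genes was past 1.5-fold between genotypes, where 2.13% of all genes were higher and 3.13% lower. In METTL3-WT cells 18 of the 45 were higher in polysomes and 7 lower, against 28.1% and 19.1% of all genes. In METTL3-K177Q cells 17 were higher and 5 lower, against 30.2% and 21.3% of all genes.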

How the data were processed

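RNA-seq of polysome gradients was analysed in 4 libraries. The table has a second set of 4 value columns, whose names carry the number 1 where those used carry 2. They could be tied to no listed sample and were not analysed here. The authors deposited 1 table of FPKM per gene, which was used as given. The submitters' processing notes name STAR 2.7, StringTie 2.1.5 and hg38; the annotation is not given in the sources used here. Since FPKM is relative to each library's total, a change shared by all mRNAs is not visible.

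Differences were taken on log2(FPKM + 0.1), so fold changes of low genes are understated, for genes whose mean reached 1 FPKM, and a fold of 1.5 was counted as higher or lower, as in the study. No p-value was computed because each condition has 1 library. Intervals of medians are 95% binomial intervals over genes, which treat genes as independent and hold no replicate error. Counting errors rest on approximate fragments, from FPKM times transcript length, with the value of 1 fragment read from the lowest cluster of values between limits chosen after looking at the values. They cover counting error only. The calculation was run on simulated data with counting error only and planted changes larger than 1.5-fold. That run does not bear on calls near the threshold or on replicate error. Positions and lengths come from GENCODE 44 (canonical transcript, GRCh38). Coding lengths were found for 94.5% of the genes above the filter, and the authors' annotation may differ.

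The 37 members were named by role and every one above the filter is given in the 4 libraries. Other pathway genes are named where their TE ratio passed 1.5-fold, and beyond this the receptors and interferons listed as background or at 0. The members and lists were chosen with earlier results of these data known. Python 3.11.15, pandas 2.3.3, numpy 2.4.6, scipy 1.17.1 and matplotlib 3.10.9 were used.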

Additional observations from a re-analysis of the deposited data

How the results depend on the processing

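With 1 library per condition no library could be left out, and depth and replicate error limit every value. No paired analysis was possible because the groups share replicate number 2 only, with 1 library each. Of 510 member values recomputed under TPM, size factors and a pseudocount of 1, 376 stayed within their approximate 95% counting interval and 134 moved outside it. The largest shift of log2 values by rescaling was 0.43, less than 1.5-fold, so no value past 1.5-fold could change sign. Nearer to 0 signs did change in TPM. The METTL3-K177Q polysome to sub-polysome value went from -0.02 to 0.42 for ISG15, from -0.10 to 0.34 for BST2 and from -0.31 to 0.13 for IFITM3. In TPM, the members higher and lower in the TE ratio became 3 and 0, against 18.6% and 2.83% of all genes, with a median of 0.25. The higher and lower members in the METTL3-K177Q polysome comparison became 23 and 0, against 50.2% and 12.6% of all genes, with a median of 0.92. Between genotypes, 1 member was then higher in polysomes (median 0.083), where 3.46% of all genes were. In the sub-polysome fraction 0 were higher and 1 lower (median -0.17), against 1.88% and 9.85% of all genes. With size factors, 9 members were higher in METTL3-K177Q polysomes. With a pseudocount of 1, 10 were higher in METTL3-WT and 9 in METTL3-K177Q polysomes. With a minimum mean of 5 FPKM these were 9 and 7 of 26, against 32.0% and 32.3% of all genes, and at a 2-fold threshold 6 and 5. For settings other than TPM and the minimum mean, shares of all genes are not given, so those counts describe the settings only. The 2-fold threshold left 0 members lower in the TE ratio, 0 lower in METTL3-K177Q polysomes and 0 higher in the sub-polysome comparison. With no filter, 2 members were higher in the TE ratio, and 1 member each was lower in METTL3-WT polysomes, in the polysome and in the sub-polysome comparison of genotypes, where the members under the filter entered. Added after seeing the data, values relative to genes of like coding length gave 0 lower in the TE ratio, 9 higher and 1 lower in METTL3-K177Q polysomes, 1 lower in METTL3-WT polysomes, 1 higher in polysomes between genotypes and 1 higher in the sub-polysome comparison. Also added, leaving out IFI6, IRF9 and the IFITM genes, which share sequence with other genes, gave 0 lower in the TE ratio, 1 lower in METTL3-K177Q polysomes and 0 higher in the sub-polysome comparison. For TPM, size factors and the pseudocount the cause was not tested. All other counts and medians of the 5 comparisons stayed within 1.5 times or within the interval of the main value.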
